A study of Mus musculus with 8 samples.

Results

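The 42 genes described here drive or mark the cell division cycle: 2 proliferation markers (Mki67 and Top2a), 7 mitotic cyclins and kinases, 4 genes of the spindle checkpoint and its target ubiquitin ligase, 9 genes of the spindle, kinetochore and cytokinesis, 10 genes of origin licensing and the replication fork, 2 genes of nucleotide synthesis, 3 G1/S genes, 3 D-type cyclins and 2 transcription factors. They were chosen by gene symbol from a list of replication and mitosis genes, and all 42 were found among the 49671 genes of the table. The data are bulk RNA-seq of mouse mammary gland epithelial cells in 4 groups of 2 libraries. Cells negative for CD45 (blood cells), CD31 (endothelium) and CD140a (fibroblasts) and positive for CD24 were sorted as luminal where CD29 was low (40000 cells per library) and as basal where it was high (5000 cells per library). CD1 mice, with no transgene named, gave the CD1 luminal and CD1 basal groups. K8rtTA/TetOCre/Rosa26-DNp63-IRES-GFP mice gave the DNp63 luminal and DNp63 basal groups, from which only GFP+ cells were taken. In these mice the keratin 8 promoter, active in luminal cells, drives the doxycycline-dependent activator rtTA, which turns on the Cre recombinase, and Cre then turns on DNp63, the p63 form that lacks the N-terminal transactivation domain, together with GFP. The animals were female, on mixed backgrounds. Neither their ages nor their doxycycline schedule was found in the labels, and the 2 strains differ in background as well as in the transgenes, so those cannot be told apart. Nothing states that replicates came from separate animals, so the p-values reflect how far replicate libraries differ. For CD1 cells this spread may be technical. The first and second DNp63 libraries had Xist values of 111346 and 36 in luminal cells, and of 60686 and 141 in basal cells. Whether these came from separate animals was not tested.

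A cell about to divide first licenses its replication origins by loading the MCM helicase, with Cdc6 and Cdt1 as loaders, then copies its DNA with the sliding clamp Pcna and nucleotides made with Rrm2 and Tyms, and finally builds a spindle and separates its chromosomes. D-type cyclins with Cdk4 or Cdk6 and cyclin E with Cdk2 inactivate the Rb family, which frees E2F factors to switch on the replication genes. Mitotic genes are switched on later, through CHR and CCAAT elements bound by the MuvB complex with B-Myb and Foxm1 and by NF-Y, and in resting cells the same CHR elements are held silent by the DREAM complex. In the adult mammary gland most cells are at rest, and division rises with puberty, the oestrous cycle and pregnancy.

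RefSeq promoters (GRCm38.p6, 250 bases before to 50 bases after each start) were given for 32 of the 42 genes, 35 promoters in all. They were searched on both strands for the CHR (TTTGAA or TTCGAA), the CCAAT box (CCAAT) and an E2F site (TTTGGCGC, TTTGCCGC, TTTCGCGC or TTTCCCGC). Of the 18 mitosis genes with a promoter, Mki67 and Top2a among them, 14 held a CHR (78.9% of their promoters, against 19.2% of all 32851 promoters) and 16 held a CCAAT box (89.5% against 37.4%). Both stood together in 78.9% of their promoters and in 7.52% of all. Of the 8 licensing and fork genes, 6 held an E2F site (66.7% of their promoters against 2.26% of all), as did 1 of the 18 mitosis genes. The 120 bases before the start are printed, 5′ to 3′ on the gene's strand, for 5 mitosis genes and for Mcm6, a helicase gene. The 5 were picked because they hold a CHR there and were higher in the DNp63 than in the CD1 libraries of each gate. Mcm6 overlapped between the luminal groups. Cenpe and Ccnb1, also higher in the DNp63 libraries, had no CHR in their promoters, and Aurka, which overlapped in both gates, had a CHR and CCAAT boxes. Whether these elements go with the differences was not tested. Capitals mark the CHR, CCAAT and E2F letters on either strand, and the 2 E2F sites at the left of Mcm6 overlap. The windows are chr10:69352913-69353032 on the minus strand for Cdk1, chr11:99024190-99024309 on the minus strand for Top2a, chr4:118437344-118437463 on the minus strand for Cdc20, chr19:37376262-37376381 on the plus strand for Kif11, chr7:135716380-135716499 on the minus strand for Mki67 and chr1:128359706-128359825 on the minus strand for Mcm6. These are matches of letters, not measured binding.
Cdk1: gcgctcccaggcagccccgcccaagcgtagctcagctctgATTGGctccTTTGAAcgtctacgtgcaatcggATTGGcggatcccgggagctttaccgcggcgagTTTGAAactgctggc
Top2a: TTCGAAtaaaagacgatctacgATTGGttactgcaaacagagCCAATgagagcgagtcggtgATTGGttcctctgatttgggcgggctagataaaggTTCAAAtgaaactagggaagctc
Cdc20: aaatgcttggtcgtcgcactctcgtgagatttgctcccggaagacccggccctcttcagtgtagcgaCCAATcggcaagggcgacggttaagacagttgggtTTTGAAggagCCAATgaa
Kif11: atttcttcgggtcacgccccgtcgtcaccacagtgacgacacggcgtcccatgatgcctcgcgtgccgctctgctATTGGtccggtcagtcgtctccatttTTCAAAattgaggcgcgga
Mki67: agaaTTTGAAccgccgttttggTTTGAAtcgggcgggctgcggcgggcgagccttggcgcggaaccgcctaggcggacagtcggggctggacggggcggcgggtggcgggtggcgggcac
Mcm6: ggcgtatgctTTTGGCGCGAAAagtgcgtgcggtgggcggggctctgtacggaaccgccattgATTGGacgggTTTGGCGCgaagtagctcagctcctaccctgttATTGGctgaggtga
The capitals show that Cdk1, Top2a, Cdc20 and Kif11 carry CHR and CCAAT letters close together before the start. Mki67 has 2 CHR matches in this window, with its CCAAT boxes farther upstream. Mcm6 has no CHR here and 3 E2F matches.

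Values are reads scaled to 20000000 per library by the authors and rounded up, called normalised reads below. From 4136986 to 7206703 reads per library lay behind them, so 1 read was worth 2.78 to 4.83 normalised reads and 3 reads 9 to 15. Trp63, the gene that DNp63 is a form of, was at 61 and 45 for CD1 luminal and at 1297 and 1460 for DNp63 luminal cells, while the basal libraries held 5457 and 7079 (CD1) and 8088 and 8306 (DNp63), which follows the labels. The second DNp63 luminal and the second DNp63 basal library stood apart from the rest. Their Xist values were 36 and 141, against 55545 to 111346 in the other 6, although all mice are labelled female, and 4 Y-linked genes lay between 0 and 4 in all 8. Both libraries bear on most of what follows, so results are also given without them. Differences below are log2 differences of scaled values plus 8 from a limma fit to all 8 libraries over 16900 genes, with the standard error (SE) and Benjamini-Hochberg adjusted p, and a gene is called where that p is under 0.05. All 42 genes reached the required 40 normalised reads in at least 2 libraries. Without the DNp63 libraries 34 would have, the other 8 being Bub1, Ccnb1, Cdk1, Ube2c, Birc5, Plk1, Bub1b and Aurkb.

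**Figure D1:**
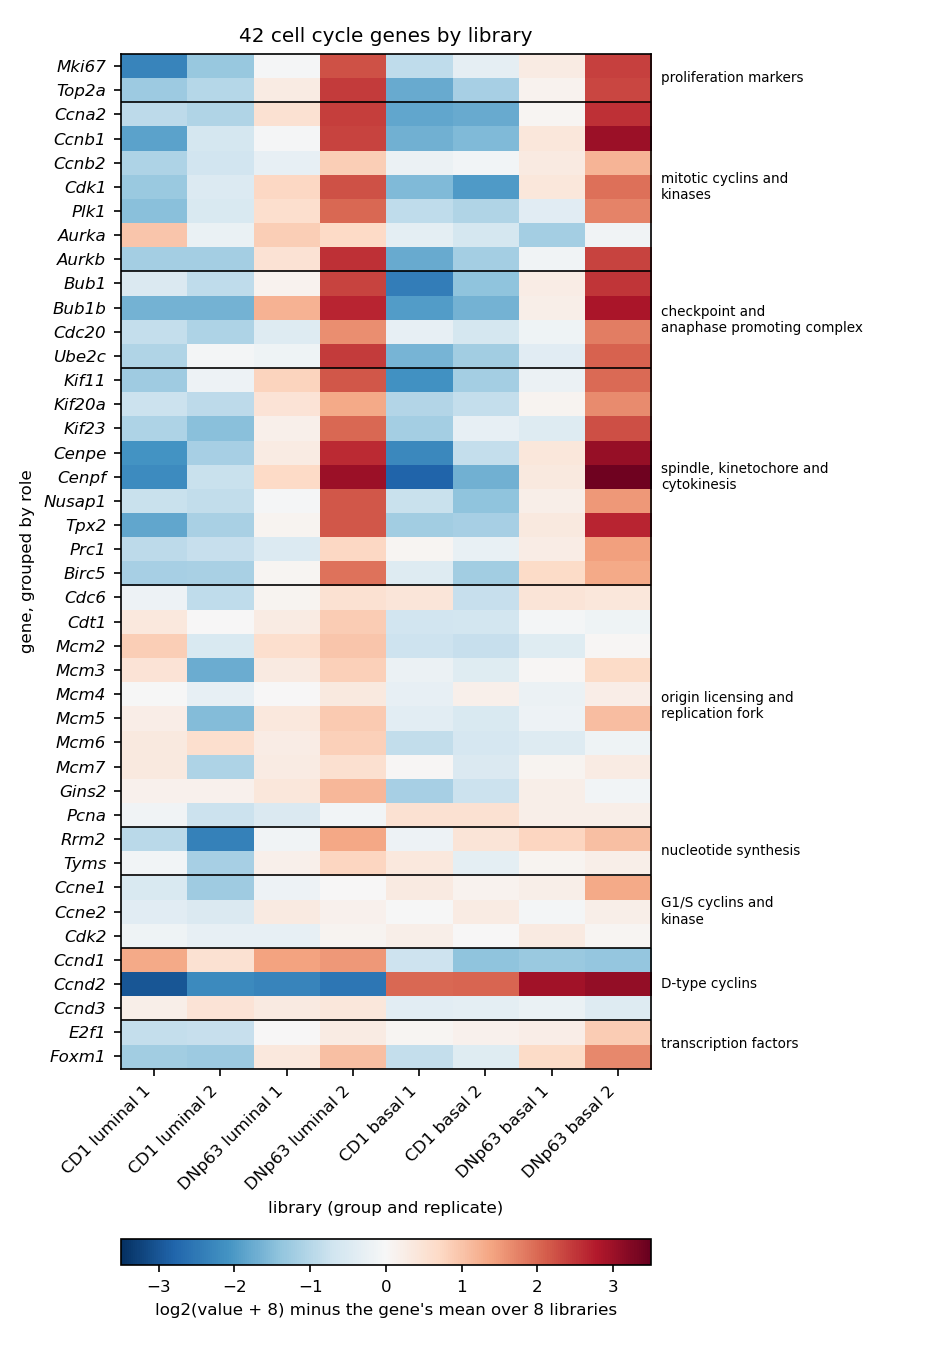
Each row is 1 of the 42 genes, grouped by role, and each column 1 of the 8 libraries. Colour gives log2 of the normalised reads plus 8, minus the gene's mean over the libraries. The upper 22 rows, markers and mitosis genes other than Aurka, are reddest in the second DNp63 luminal and second DNp63 basal libraries, the replication rows are paler apart from low Mcm3 and Mcm5 in the second CD1 luminal library, and Ccnd1 and Ccnd2 split by gate.

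Most mitosis genes and both proliferation markers had higher values in the DNp63 luminal than in the CD1 luminal libraries, by very different amounts in the 2 DNp63 libraries, and few passed the test. Of the 42 genes, 2 were called higher, the checkpoint kinase Bub1b and the transcription factor Foxm1, and none lower, where 2.64% of all genes were called higher, 1.74% lower and 4.38% either way. Bub1b is 1 of the 8 genes that reached the low-value filter only through the DNp63 libraries, where it is high; of the 34 that passed without them 1 was called, Foxm1 (2.94%, beside 2.18% of all genes that passed so). At an unadjusted p under 0.05, 22 of the 42 were higher (9.09% of all genes) and 0 lower (8.04%). The fitted difference was above 0 for 41 of the 42, with a median of 1.36, beside 0.0102 over all genes. Over the 34 genes that passed without any DNp63 library, 33 were above 0 and the median was 0.987.

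Mki67, which codes for the Ki-67 protein that coats mitotic chromosomes, stood at 224 and 452 normalised reads in CD1 luminal and at 1113 and 5392 in DNp63 luminal cells. Top2a, the topoisomerase that untangles replicated chromosomes, stood at 178 and 215 and at 531 and 2403. For both markers every DNp63 luminal library was above every CD1 luminal one, and the second DNp63 library was several times above the first. The difference was 2.86 for Mki67 (SE 0.79, limma adjusted p 0.0924) and 2.43 for Top2a (SE 0.77, adjusted p 0.135), so neither was called. On GRCm38 (GENCODE M21 annotation) Mki67 lies at chr7:135689784-135716361 and Top2a at chr11:98992943-99024189, both on the minus strand. Per read, with counting error only, the ratio was 8.62 for Mki67 (95% exact interval 7.40 to 10.1) and 6.68 for Top2a (5.46 to 8.24). In bulk samples more dividing cells and more RNA per dividing cell cannot be told apart.

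Bub1b, the spindle checkpoint kinase BubR1, had 8 and 8 normalised reads in CD1 luminal and 109 and 317 in DNp63 luminal cells, a difference of 3.57 (SE 0.79, limma adjusted p 0.0407). Only 4 reads in all stood behind the CD1 luminal values, so the size depends on the added 8, and the ratio of reads was 26.9 with a counting interval of 10.2 to 100. Foxm1, the transcription factor of the G2/M genes, had 54 and 52 in CD1 luminal and 178 and 294 in DNp63 luminal cells, a difference of 1.91 (SE 0.38, adjusted p 0.0276). Bub1b lies at chr2:118598211-118641591 and Foxm1 at chr6:128362967-128376146, both on the plus strand. In both genes the groups were far apart, and the first DNp63 luminal library alone was above both CD1 luminal libraries. Neither call held when the second DNp63 luminal and second DNp63 basal libraries were left out (differences of 2.83, adjusted p 0.123, and 1.56, adjusted p 0.243). Leaving out any 1 of the 4 luminal libraries also ended both calls, with adjusted p of 0.0801 to 0.285 for Bub1b and 0.0564 to 0.222 for Foxm1, and leaving out either CD1 basal library ended that of Bub1b (0.0744 and 0.0740).

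The mitotic cyclins and kinases had the same order of libraries. Cdk1, the kinase that starts mitosis, had 18 and 38 in CD1 luminal and 98 and 290 in DNp63 luminal cells, a difference of 2.31 (SE 0.63, limma adjusted p 0.0849). Its partner Ccnb1 (cyclin B1) had 8 and 30 against 48 and 294. Ccna2 (cyclin A2) had 50 and 45 against 150 and 583. Ccnb2, another B-type cyclin, had 174 and 230 against 303 and 685, the smallest difference of the 3 mitotic cyclins (1.1). No cyclin overlapped between the groups. Plk1, the kinase of mitotic entry and spindle assembly, had 4 and 15 against 42 and 126. Aurkb, the kinase that corrects faulty spindle attachments, had 4 and 4 against 31 and 153. Aurka, the centrosome kinase, was the exception, with 327 and 138 in CD1 luminal and 303 and 270 in DNp63 luminal cells, so its groups overlapped. The 7 differences ran from 0.356 for Aurka to 2.69 for Aurkb, and none was called.

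Among the checkpoint genes beside Bub1b, the kinase Bub1 had 22 and 15 in CD1 luminal against 39 and 212 in DNp63 luminal cells. Cdc20, which activates the anaphase promoting complex, had 54 and 45 against 73 and 337. Ube2c, the ubiquitin-conjugating enzyme of that complex, had 32 and 71 against 67 and 450. In these 3 genes most of the difference lay in the second DNp63 library, and Ube2c in the first was below 1 of the CD1 luminal libraries.

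The 9 spindle, kinetochore and cytokinesis genes had differences from 0.932 to 3.29, with a median of 2.14, and none was called. Cenpf, a large protein of the outer kinetochore, had 25 and 82 against 242 and 1206, the largest difference of the 9 (3.29, SE 1.04, limma adjusted p 0.135). Cenpe, the kinesin that carries chromosomes to the spindle equator, had 22 and 49 against 148 and 771. Tpx2, which activates Aurora A on the spindle, had 25 and 45 against 117 and 517. In all 3 even the lower DNp63 luminal library was well above both CD1 luminal libraries. Kif11, the motor that keeps spindle poles apart, had 57 and 130 against 261 and 689. Kif20a, a motor of the dividing midzone, had 68 and 60 against 173 and 314. Kif23, another midzone motor, had 71 and 52 against 181 and 654. All 3 motors were above the CD1 luminal range in both DNp63 libraries, and highest in the second. Nusap1, a spindle microtubule binder, had 61 and 56 against 106 and 517. Birc5 (survivin), a partner of Aurora B, had 25 and 26 against 70 and 267. Prc1, which bundles midzone microtubules, had 160 and 171 against 217 and 517, the smallest difference of the 9. Every one of these 9 genes was without overlap between the groups.

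**Figure D2:**
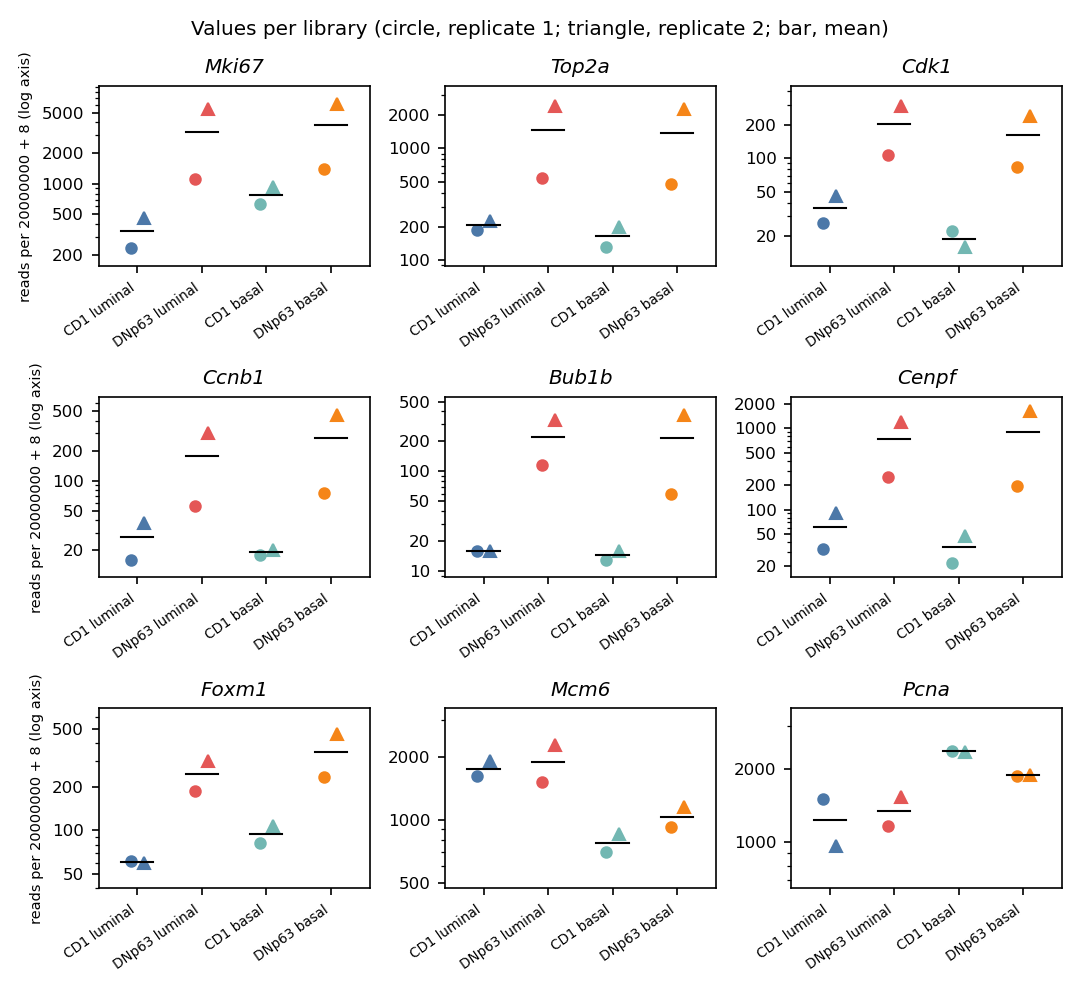
Normalised reads plus 8 of 9 genes in each library on log axes, with circles for the first and triangles for the second library of a group and a bar at the group mean. In Mki67, Top2a, Cdk1, Ccnb1, Bub1b, Cenpf and Foxm1 the 4 DNp63 points lie above the 4 CD1 points and the DNp63 triangles are highest, while Mcm6 and Pcna split by gate.

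The replication genes differed less in value between CD1 luminal and DNp63 luminal cells. The 10 licensing and fork genes had a median difference of 0.567, beside 2.28 for the 22 markers and mitosis genes (2.22 for the 14 of these that passed the filter without any DNp63 library), and none was called. The helicase subunit Mcm6 had 1603 and 1890 in CD1 luminal and 1502 and 2270 in DNp63 luminal cells, a difference of 0.03 (95% interval -0.456 to 0.513). Its partner Mcm4 had 1220 and 1008 against 1258 and 1581. Pcna had 1500 and 960 against 1152 and 1522, a difference of 0.08 (95% interval -0.396 to 0.565). In Mcm6 and Pcna the groups overlapped, and the interval left out a log2 difference of 1 in either direction.

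4 of the 6 helicase subunits were low in the second CD1 luminal library. Mcm2 had 717 and 264 in CD1 luminal cells against 594 and 767 in DNp63 luminal cells. Mcm3 had 511 and 104 against 450 and 646. Mcm5 had 316 and 89 against 350 and 517. For Mcm2 and Mcm3 the first CD1 luminal library lay inside the DNp63 luminal range, and for Mcm5 just below it, while the second lay far below. Mcm7 had the same pattern, with 756 and 278 against 730 and 881. Without the first CD1 luminal library the differences were 1.27 for Mcm2, 2.23 for Mcm3, 2.10 for Mcm5 and 1.44 for Mcm7. Rrm2 differed by 2.92 in that fit. Its CD1 luminal level rests on the 1 library in which these 4 helicase genes were low. With all libraries the limma adjusted p of the 4 helicase genes ran from 0.309 to 0.549. The median difference of the 10 licensing and fork genes was 0.861 without the first CD1 luminal library and 0.150 without the second. The loader Cdc6 had 79 and 45 against 98 and 134 (difference 0.80, adjusted p 0.419). The loader Cdt1 had 227 and 178 against 214 and 333 (0.34, adjusted p 0.612). Gins2, part of the GINS complex that joins the helicase, had 82 and 82 against 98 and 173 (0.57, adjusted p 0.487). Cdc6 and Gins2 did not overlap between the groups, and Cdt1 did.

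Rrm2, the ribonucleotide reductase subunit made in S phase, had 54 and 15 in CD1 luminal and 100 and 294 in DNp63 luminal cells, a difference of 2.21 (SE 0.58, limma adjusted p 0.0754). Tyms, which makes thymidylate, had 157 and 71 against 192 and 290 (difference 1.04, adjusted p 0.222). E2f1, the activating E2F, had 50 and 52 against 98 and 118 (difference 0.92, SE 0.31, adjusted p 0.162). Rrm2, Tyms and E2f1 were without overlap higher in DNp63 luminal cells, and none was called. Of the G1/S genes, Ccne1 (cyclin E1) had 25 and 12 against 34 and 40. Ccne2 (cyclin E2) had 164 and 149 against 272 and 239. Cdk2, their kinase, had 451 and 408 against 411 and 540. Both E cyclins were without overlap higher in DNp63 luminal cells and Cdk2 overlapped, and again none was called.

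In basal cells the mitosis genes lay as far apart, and here no gene was called. Of the 42 genes 0 were called between DNp63 basal and CD1 basal cells by limma (0.704% of all genes either way, 0.207% higher and 0.497% lower), 20 were higher at an unadjusted p under 0.05 (5.00% of all genes) and 0 lower (6.05%), and limma voom on recovered reads called 1, Ccnd2. The difference was above 0 for 38 of the 42, with a median of 1.00 beside -0.0175 over all genes. Over the 34 genes that passed the filter without any DNp63 library, the median was 0.834 and 30 were above 0. The 22 markers and mitosis genes had a median of 2.40 (1.95 for the 14 that passed so), and the 10 licensing and fork genes one of 0.559.

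Mki67 had 619 and 923 in CD1 basal against 1396 and 6073 in DNp63 basal cells (difference 1.94, SE 0.79, limma adjusted p 0.413). Top2a had 124 and 192 against 477 and 2239 (2.69, SE 0.77, adjusted p 0.214). As in luminal cells the groups did not overlap, and the second DNp63 library was more than 4 times the first in both genes. Cenpf had the largest difference of the 42 in basal cells, with 14 and 40 in CD1 basal against 186 and 1620 in DNp63 basal cells (4.11, SE 1.04, adjusted p 0.159). Cdk1 had 14 and 8 against 76 and 233 (2.93, SE 0.63, adjusted p 0.0923). Foxm1 had 74 and 100 against 224 and 455 (1.80, SE 0.38), and its adjusted p of 0.0915 was the smallest of the 42 here. These 3 genes were without overlap too, with the first DNp63 basal library well above CD1 basal. Bub1b had 5 and 8 against 51 and 363 (3.36, SE 0.79, adjusted p 0.127), with 3 reads in all in CD1 basal cells and a ratio of reads of 30.6 (counting interval 10.1 to 151). Its first DNp63 basal library alone was above both CD1 basal libraries.

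The other mitosis genes had the same order of libraries in basal cells. Ccnb1 had 10 and 12 in CD1 basal against 68 and 455 in DNp63 basal cells. Ccna2 had 23 and 24 against 106 and 634. Ccnb2 had 321 and 352 against 468 and 856. The 3 mitotic cyclins were thus without overlap higher in DNp63 basal cells, with Ccnb2 again at the highest CD1 level and the smallest difference (0.90). Bub1 had 0 and 8 against 43 and 233. Cdc20 had 83 and 64 against 93 and 373. Ube2c had 19 and 28 against 55 and 344. The checkpoint genes were without overlap as well, Cdc20 by a narrow margin in the first DNp63 library. Plk1 had 10 and 8 against 17 and 102. Aurkb had 0 and 4 against 17 and 131. Aurka had 129 and 104 against 68 and 150, and was the kinase that overlapped in this gate too.

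The spindle genes in basal cells ran from small to large differences, from 0.941 for Prc1 to 4.11 for Cenpf. Cenpe had 19 and 64 in CD1 basal against 161 and 1045 in DNp63 basal cells. Tpx2 had 42 and 44 against 140 and 730. Kif11 had 28 and 60 against 127 and 605. In these 3 both DNp63 basal libraries were above CD1 basal, the second by far. Kif20a had 55 and 64 against 131 and 397. Nusap1 had 60 and 36 against 127 and 329. Birc5 had 46 and 24 against 110 and 179. These 3 were without overlap with a smaller step between the DNp63 libraries. Prc1 had 321 and 256 against 367 and 842. Kif23 had 65 and 128 against 114 and 779, and was the spindle gene whose first DNp63 basal library lay inside the CD1 basal range.

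Replication genes again lay closer together in basal cells. Pcna, the sliding clamp, had 2363 and 2344 in CD1 basal against 1868 and 1881 in DNp63 basal cells (difference -0.32, SE 0.21, limma adjusted p 0.651), the 1 gene of the 42 whose DNp63 basal libraries both lay below both CD1 basal ones. Mcm6 had 696 and 843 against 911 and 1141 (0.41, SE 0.21). Gins2 had 28 and 40 against 85 and 68 (1.02, SE 0.36), and its adjusted p of 0.320 was the smallest of the 10 licensing and fork genes. These 3 genes were without overlap and not called. Mcm2 had 234 and 220 against 287 and 402. Mcm3 had 316 and 268 against 376 and 581. Mcm5 had 207 and 184 against 237 and 581. In these 3 helicase genes the first DNp63 basal library was close to CD1 basal and the second farther above. Mcm7 had 614 and 416 against 633 and 735. Mcm4 had 1017 and 1406 against 1067 and 1451. The loaders Cdc6 and Cdt1 had 124 and 48 against 127 and 121, and 106 and 108 against 165 and 155. Mcm7 and Cdt1 were without overlap, Mcm4 overlapped, and the first CD1 basal value of Cdc6 lay between its DNp63 basal values.

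Among the remaining genes in basal cells, Rrm2 had 97 and 152 in CD1 basal against 190 and 237 in DNp63 basal cells (difference 0.77, limma adjusted p 0.710). Tyms had 220 and 132 against 182 and 194. E2f1 had 101 and 108 against 114 and 184. Rrm2 and E2f1 were without overlap higher by small steps, and Tyms overlapped. Ccne1 had 51 and 44 against 47 and 112. Ccne2 had 216 and 268 against 207 and 252. Cdk2 had 586 and 508 against 633 and 532. The 3 G1/S genes overlapped between the groups.

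**Figure D3:**
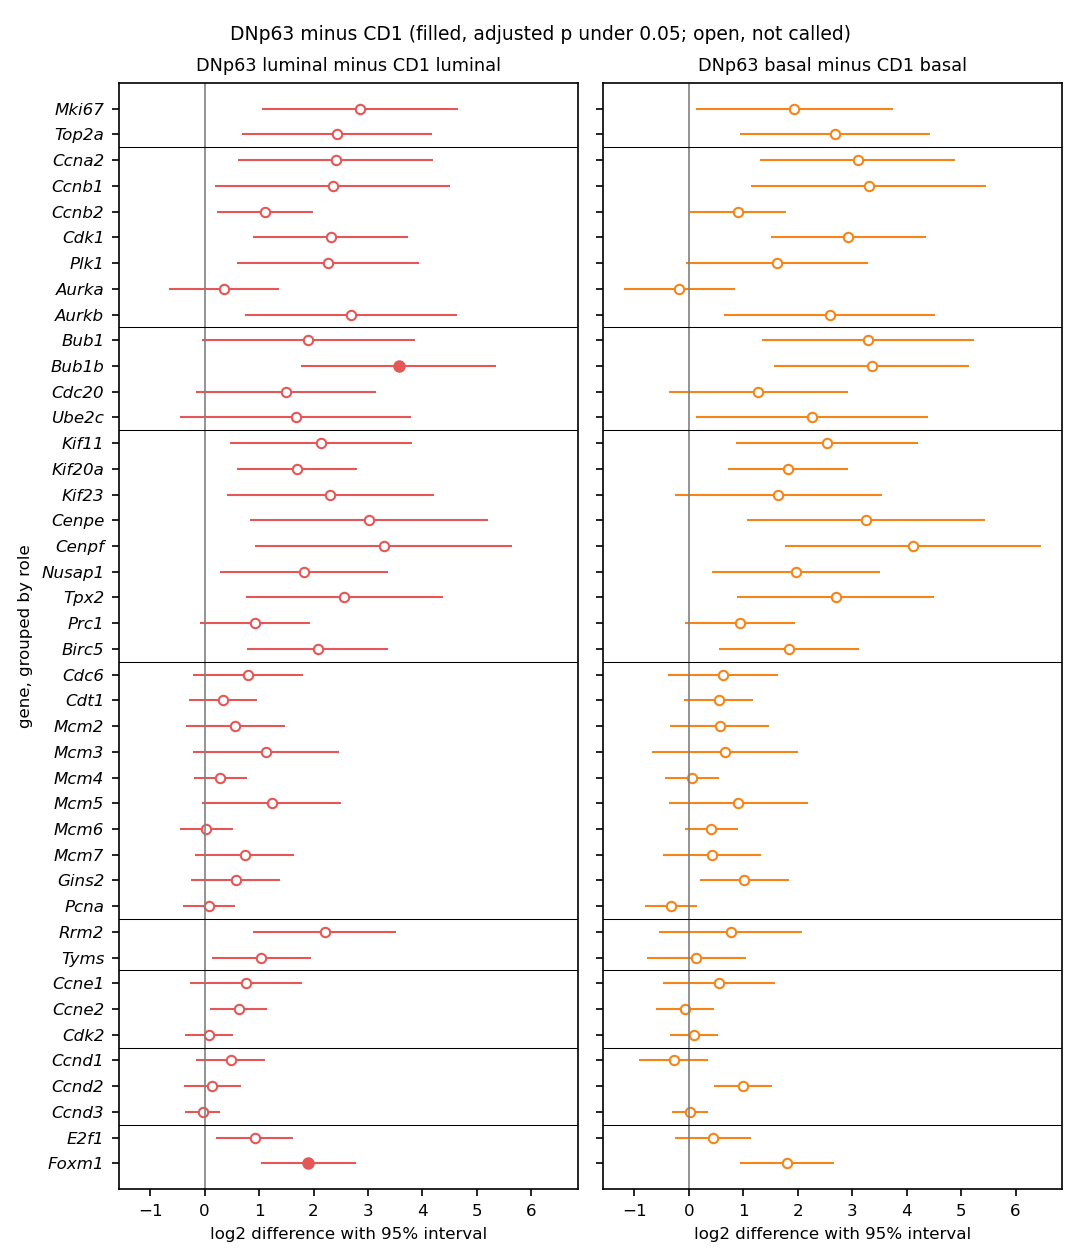
Log2 difference with its 95% interval for each of the 42 genes, DNp63 luminal minus CD1 luminal at the left and DNp63 basal minus CD1 basal at the right; filled points were called. Most mitosis rows lie between 1 and 4 with wide intervals, most replication rows between 0 and 1, and Bub1b and Foxm1 at the left are the filled points.

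Counted by libraries, 30 of the 42 genes had both DNp63 luminal values above both CD1 luminal values and 0 had both below, where 23.6% of all genes lay above and 21.7% below. In basal cells 31 lay above and 1 below, where 20.2% and 22.4% of all genes did. In 16 genes all 4 DNp63 libraries were above all 4 CD1 libraries, where 2.16% of all genes were, and in 0 all 4 were below (1.40%). The 16 were Mki67, Top2a, Ccna2, Ccnb1, Cdk1, Plk1, Aurkb, Bub1, Bub1b, Kif20a, Cenpe, Cenpf, Nusap1, Tpx2, Birc5 and Foxm1. Of these, 7 passed the filter only through the DNp63 libraries (Bub1, Ccnb1, Cdk1, Birc5, Plk1, Bub1b and Aurkb), so these had to be high in DNp63 libraries to be tested at all. Among the 34 genes that passed without them, 9 had all 4 DNp63 libraries above (26.5%, beside 1.69% of all genes that passed so), and 23 were without overlap higher in each gate (67.6%, beside 22.4% of all such genes in luminal and 19.3% in basal cells). No gene of licensing, nucleotide synthesis, G1/S or the D-type cyclins was among the 16. Differences between replicates correlated at 0.267 between the DNp63 gates, so the 4 DNp63 libraries may not be 4 independent observations.

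The 2 DNp63 libraries of each gate differed from each other in many of the 42 genes. The second DNp63 luminal library was above the first by a median log2 difference of 0.976 over the 42 genes (-0.0144 over all genes), and 21 of the 42 were more than 2-fold higher, as were 2.53% of all genes. In DNp63 basal cells the median was 1.06 (-0.0546 over all genes), with 22 of the 42 more than 2-fold higher (2.85% of all genes). These counts shared 18 genes, 85.7% of the luminal and 81.8% of the basal ones. Ccnb2, Birc5 and Rrm2 passed 2-fold in luminal cells alone, and Aurka, Kif20a, Mcm5 and Ccne1 in basal cells alone. The 8 genes that passed the filter only through the DNp63 libraries were all among the 21, and all but Birc5 among the 22. These had to be high in DNp63 libraries to be tested at all, so both counts include genes selected in part by these values. In CD1 luminal cells the median was -0.0814, with 3 genes more than 2-fold higher and 7 lower (5.82% and 4.04% of all genes), and in CD1 basal cells 0.066, with 3 higher and 1 lower (3.44% and 2.84%). This spread between replicates enters the SE, so log2 differences above 2 in the mitosis genes came with SEs of 0.569 to 1.04.

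By role, the step from the first to the second DNp63 library had a median of 2.14 in luminal and 2.33 in basal cells for the checkpoint genes. Among these only Cdc20 passed the filter without the DNp63 libraries, and of the genes below Ccnb1, Cdk1, Plk1, Aurkb and Birc5 did not. The markers Mki67 and Top2a had 2.2 and 2.13, the spindle genes 1.80 and 2.15, and the mitotic cyclins and kinases 1.47 and 2.11. The licensing and fork genes had 0.450 and 0.232, the 2 genes of nucleotide synthesis 1.01 and 0.163, and the D-type cyclins 0.050 and -0.0876. The step was thus larger in the mitosis genes than in the licensing and fork genes, with nucleotide synthesis between them in luminal cells. In CD1 luminal cells the licensing and fork genes moved the other way, with a median of -0.682, and nucleotide synthesis -1.25.

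**Figure D4:**
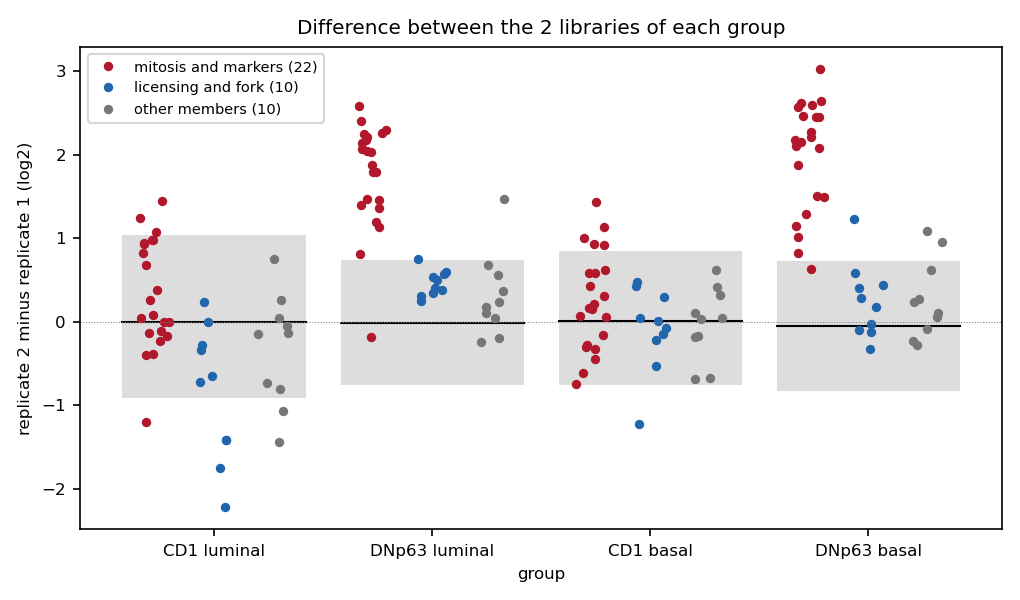
Log2 difference of the second minus the first library in each group; every point is 1 of the 42 genes, coloured by class, the grey band holds the middle 90% of all 16900 genes and the black line is their median. In both DNp63 groups most mitosis points lie above the band, whereas in both CD1 groups they spread across it.

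The second DNp63 luminal and second DNp63 basal libraries, the 2 with low Xist, were left out together. Without them 39 of the 42 genes passed the filter, and the mitosis genes had a median of 1.36 in luminal cells, with 19 of 19 above 0, and of 1.47 in basal cells, with 18 of 19 above 0. No gene of the 39 was called in either comparison. With the first libraries left out instead the medians were 3.02 in luminal and 3.61 in basal cells. Each of these fits leaves 1 library in both DNp63 groups, which is assumed to vary like the CD1 groups. For Mki67 the luminal difference was 1.73 with the first DNp63 libraries alone and 3.98 with the second alone, and the basal difference 0.90 and 3.04. Whether the low Xist and the high mitosis genes of these 2 libraries have a common source was not tested.

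Markers of other cells were set beside these values. The summed normalised reads of 13 immune markers were 1285 and 1584 for CD1 luminal, 1254 and 2121 for DNp63 luminal, 2733 and 2234 for CD1 basal, then 1881 and 4337 for DNp63 basal cells, so within each gate the second DNp63 library was highest here too. Without the antigen-presentation gene Cd74 the sums were 763 and 802, 735 and 782, 1872 and 1267, and 1244 and 1494, and the second DNp63 library was highest in neither gate. Ptprc, the gene of CD45, was at 48 and 71 in DNp63 luminal and 30 and 126 in DNp63 basal cells. The sum of 10 fibroblast markers was 9209 and 44838, 17326 and 10036, 16907 and 46796, and 69875 and 92869 in the same order, and between DNp63 basal and CD1 basal cells all 10 differences were above 0, with a median of 1.51 (0.344 to 2.58), and 0 were called by limma. The sum of 12 endothelial markers was 3645 to 4775 in the luminal and 48117 to 68611 in the basal libraries, and that of 10 pericyte and vascular muscle markers 4468 to 6258 and 19165 to 26339. In CD1 mice 11 of the 12 and 9 of the 10 were called higher in basal cells by limma, where 23.9% of all genes were. Pecam1, the gene of CD31, was at 331 to 571 in the luminal and 4980 to 8163 in the basal libraries, although CD31-negative cells were sorted. The gates' own markers split as labelled in CD1 mice, with 11 of 11 luminal markers called lower and 10 of 10 basal markers higher on the basal side. Between DNp63 basal and CD1 basal cells, 5 of the 11 luminal markers were called lower (0.497% of all genes) and 0 were above 0 (median -0.940), while 0 of the 10 basal markers were called (0.704% of all genes either way). Between DNp63 luminal and CD1 luminal cells, 1 of 11 luminal markers (Krt19) and 1 of 10 basal markers were called higher, where 2.64% of all genes were. That basal marker was Trp63, the gene that DNp63 is a form of, and the other basal markers, Krt5 and Krt14 among them, were not called. The part of these cells in the levels of the 42 genes was not tested.

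Between the gates of CD1 mice the 42 genes showed no common direction. Basal against luminal, 4 were called higher (23.9% of all genes were) and 5 lower (20.6%), 9 in all beside 44.5% of all genes. 23 of the 42 differences were above 0, with a median of 0.0741 beside -0.027 over all genes. Among the mitosis genes and markers 0 of 22 were called by limma, and their median was -0.232. The fit shares 1 spread per gene over all 4 groups, so the step between DNp63 libraries enters these SEs too. For Mki67 that step was 2.25 and 2.08 in the DNp63 luminal and basal groups, beside 0.984 and 0.589 in the CD1 ones. Mki67 had 619 and 923 in CD1 basal against 224 and 452 in CD1 luminal cells, without overlap (difference 1.20, SE 0.79, 95% interval -0.608 to 3.00, limma adjusted p 0.252). It was called where the second or the first libraries of both DNp63 groups were left out (adjusted p 0.0473 and 0.0441), as was Prc1 without the first ones (0.76, adjusted p 0.0434). Aurka was called lower without the second CD1 luminal library (-1.44, adjusted p 0.0290). Top2a had 124 and 192 against 178 and 215, which overlapped (difference -0.35, SE 0.77, adjusted p 0.737). Without overlap, 12 of the 42 genes were higher and 13 lower, where 35.9% and 36.1% of all genes were.

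The called genes were mostly D-type cyclins and replication genes. Mcm6 was lower in CD1 basal cells (696 and 843 against 1603 and 1890, difference -1.21, SE 0.21, limma adjusted p 0.00200). Pcna was higher (2363 and 2344 against 1500 and 960, difference 0.94, SE 0.21, adjusted p 0.00682). Both kept their call in all 17 other settings tried. Mcm6 lies at chr1:128331590-128359664 and Pcna at chr2:132249162-132253314, both on the minus strand. So 2 parts of the same replication fork, the helicase subunit Mcm6 and the clamp, had opposite orders between the gates at the RNA level. The other helicase subunits were not called. Mcm2 was without overlap lower in CD1 basal cells, while Mcm3, Mcm4, Mcm5 and Mcm7 overlapped.

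The other 4 called genes outside the D-type cyclins were less firm. Gins2 was lower in CD1 basal cells (28 and 40 against 82 and 82, difference -1.14, SE 0.36, limma adjusted p 0.0297), as was Cdt1 (106 and 108 against 227 and 178, -0.89, SE 0.28, adjusted p 0.0280). Rrm2 was higher (97 and 152 against 54 and 15, 1.76, SE 0.58, adjusted p 0.0356), as was E2f1 (101 and 108 against 50 and 52, 0.90, SE 0.31, adjusted p 0.0408). All 4 lay without overlap between the groups. Gins2 kept its call in 10 of 16 other settings, Cdt1 in 12 of 17, Rrm2 in 9 of 17 and E2f1 in 8 of 17. Leaving out either CD1 basal library ended all 4 calls, and the adjusted p over these settings reached 0.144 for Gins2, 0.129 for Cdt1, 0.180 for Rrm2 and 0.149 for E2f1.

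The 3 D-type cyclins, which link growth signals to the start of the cycle, were all called between the gates in both kinds of mice, and Ccnd2 and Ccnd1 had the largest differences of the 42 genes. Ccnd1 (cyclin D1) had 3518 and 2023 for CD1 luminal, 3708 and 4027 for DNp63 luminal, 847 and 523 for CD1 basal, then 557 and 537 for DNp63 basal cells. Ccnd2 (cyclin D2) had 89 and 156, 148 and 126, 3072 and 3138, and 5876 and 6464 in the same order. Ccnd3 (cyclin D3) had 1486 and 1786, 1613 and 1691, 994 and 1003, and 1084 and 943. Ccnd1 lies at chr7:144929931-144939925 and Ccnd2 at chr6:127125162-127152193 on the minus strand and Ccnd3 at chr17:47505051-47599691 on the plus strand. Ccnd1 and Ccnd3 were higher in every luminal than in every basal library, and Ccnd2 was higher in every basal one.

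Basal minus luminal in CD1 mice, the difference was -2.02 for Ccnd1 (SE 0.28, limma adjusted p 0.000512), 4.60 for Ccnd2 (SE 0.23, adjusted p 2.94e-06) and -0.73 for Ccnd3 (SE 0.14, adjusted p 0.00351). In DNp63 mice it was -2.77 for Ccnd1 (adjusted p 7.41e-05), 5.44 for Ccnd2 (adjusted p 1.04e-06) and -0.67 for Ccnd3 (adjusted p 0.00483). All 6 calls held in the same 17 settings, and without either pair of DNp63 libraries the calls of Ccnd1 and Ccnd2 between the DNp63 gates held too, while Ccnd3 had adjusted p of 0.144 and 0.0683. Per kilobase of exon, Ccnd1 had a level of 588 normalised reads in CD1 luminal cells beside 186 for Ccnd3 and 13.0 for Ccnd2, and in CD1 basal cells Ccnd2 had 330 beside 145 for Ccnd1 and 114 for Ccnd3. In DNp63 basal cells Ccnd2 was at about double its CD1 basal values (difference 0.99, SE 0.23, 95% interval 0.461 to 1.52) without overlap, which limma did not call (adjusted p 0.127, and 0.0182 to 0.0263 by voom, with the compared libraries alone or without either CD1 luminal library). The gate difference of Ccnd2 was larger in DNp63 than in CD1 mice by 0.85 (SE 0.33, adjusted p 0.394), which was not called.

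**Figure D5:**
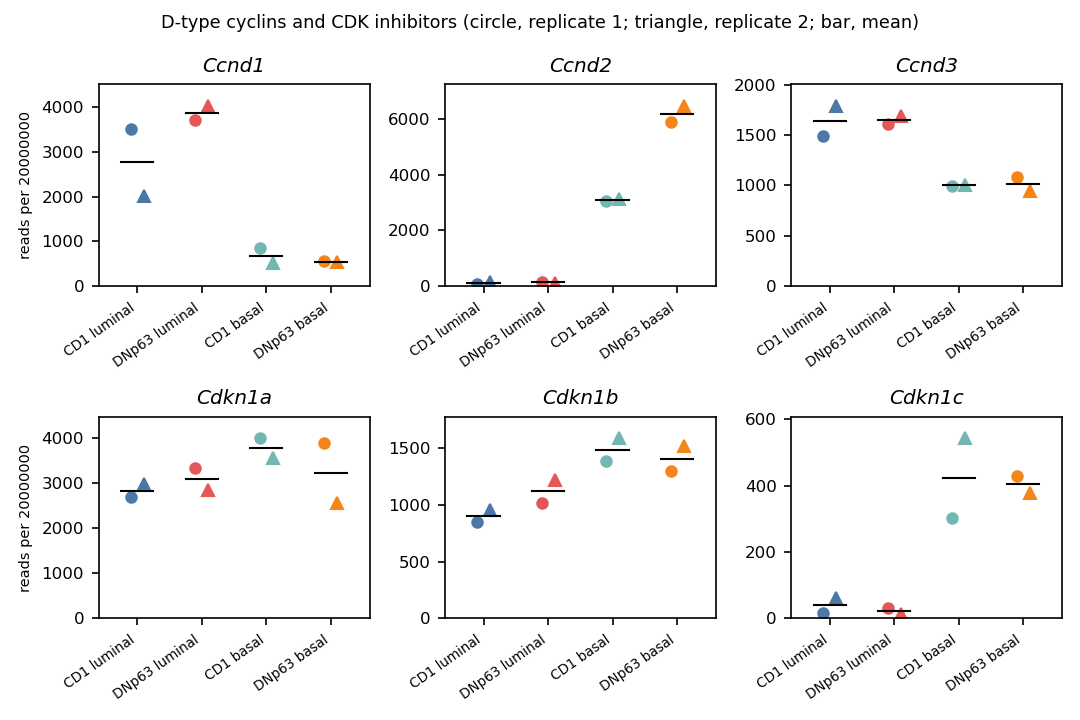
Normalised reads of the 3 D-type cyclins and of 3 CDK inhibitors in each library on linear axes from 0, with circles for the first and triangles for the second library and bars at the means. Ccnd1 and Ccnd3 sit higher in the luminal libraries, Ccnd2 and Cdkn1c in the basal ones, with the highest Ccnd2 in DNp63 basal cells.

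Between the DNp63 gates 5 of the 42 genes were called, the 3 cyclins, Mcm6 and Aurka, where 49.1% of all genes were. Of the 5, 1 was higher in basal cells and 4 lower (24.8% and 24.3% of all genes), and with median-of-ratios scaling Pcna was called higher too (adjusted p 0.0450), which made 2 higher and 4 lower. Mcm6 was again lower in basal cells (911 and 1141 against 1502 and 2270, difference -0.82, SE 0.21, limma adjusted p 0.0120). Aurka was lower too (68 and 150 against 303 and 270, -1.40, SE 0.45, adjusted p 0.0292). Neither was called without the second DNp63 luminal or the first DNp63 basal library, and Aurka was not without the first DNp63 luminal one (adjusted p 0.0842 to 0.193). Mki67 differed by 0.28 between these gates (95% interval -1.53 to 2.08) and Top2a by -0.10 (-1.84 to 1.65), so the intervals hold differences above 1 in either direction. Of the 42 genes 4 lay without overlap higher and 7 lower in basal cells, where 36.8% and 41.7% of all genes did.

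Whether the gate difference itself changed between CD1 and DNp63 mice was tested as an interaction. limma called 0 of the 42 genes (0.379% of all genes were called, 0.0947% higher and 0.284% lower) and voom 0. At an unadjusted p under 0.05, 1 was higher, Ccnd2 (4.49% of all genes), and 0 were lower (5.95%). The 42 interaction terms had a median of -0.103 beside -0.0349 over all genes, and 20 were above 0. For Mki67 the term was -0.92 (95% interval -3.47 to 1.63) and for Top2a 0.26 (-2.21 to 2.72). Without the first CD1 luminal library Ccnd2 was called (1.26, adjusted p 0.0467).

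Levels per kilobase of exon placed the 42 genes on 1 scale. Pcna was highest in CD1 basal cells with 981 normalised reads per kilobase, and Mcm6 and Mcm4 had 374 and 310 in CD1 luminal cells. Mki67 had 33.6 in CD1 luminal and 323 in DNp63 luminal cells, and Top2a 21.8 and 163. Aurkb and Bub1b were lowest in CD1 luminal cells, at 1.36 and 1.87. Many mitosis genes therefore rested on few reads in the CD1 groups, where Aurkb had 2 reads in all in luminal and 1 in basal cells.

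Other genes of the cycle, on lists drawn up beside the 42, were read from the same fit. Of 53 tested further mitosis genes, 22 passed the filter only through the DNp63 libraries. The other 31 all had a difference above 0 in both comparisons of DNp63 with CD1 cells, with medians of 1.1 in luminal and 0.982 in basal cells, beside 51.5% and 47.5% of all genes above 0, and 0 of the 31 were called higher by limma. 1 of the 53 was called, the kinetochore gene Spc24 in luminal cells (4 and 8 against 34 and 94, difference 2.2, SE 0.48, limma adjusted p 0.0394). Spc24 was among the 22 that passed the filter only through the DNp63 libraries, where it is high. Of 41 further replication genes, 33 were above 0 in luminal and 27 in basal cells, with medians of 0.417 and 0.228. In either gate 0 of the 41 were called, where 4.38% and 0.704% of all genes were. In DNp63 cells the mitosis list was summed at 8093 and 20164 normalised reads in luminal and 6964 and 19531 in basal cells, against 4819 to 5606 in the 4 CD1 libraries, so it was again highest in the second DNp63 libraries.

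Between the CD1 gates, 8 of the 41 further replication genes were called higher in basal cells and 4 lower, where 23.9% and 20.6% of all genes were, so calls were no more frequent in this list than elsewhere. The polymerase delta subunit Pold2 was higher (1118 and 1030 against 348 and 126, difference 2.28, limma adjusted p 0.00137), as were the helicase activator Cdc45 (152 and 112 against 54 and 15, 1.85, adjusted p 0.0119) and the polymerase alpha subunit Pola2 (348 and 320 against 107 and 82, 1.72, adjusted p 0.000750). The thymidine kinase Tk1 was lower (371 and 244 against 639 and 749, -1.21, adjusted p 0.00242), as were the clamp loader subunit Rfc5 (-1.15, adjusted p 0.00221) and another polymerase delta subunit, Pold3 (715 and 563 against 1245 and 1312, -1.03, adjusted p 0.00344). Subunits of 1 polymerase thus lay on opposite sides. Of the 53 further mitosis genes 2 were called higher in CD1 basal cells (Fam83d and Spc24) and 5 lower, below those shares, among them Kif2c (0 and 24 against 103 and 56, adjusted p 0.0480), Dlgap5 (28 and 32 against 135 and 212, adjusted p 0.0168) and Ckap2l (46 and 36 against 171 and 189, adjusted p 0.0262).

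Of 8 CDK inhibitors, the brakes of the cycle, 2 were called higher on the basal side in CD1 mice and none lower, near the 23.9% and below the 20.6% of all genes. Cdkn1c (p57) had 303 and 543 in CD1 basal and 15 and 63 in CD1 luminal cells (difference 3.33, SE 0.56, limma adjusted p 0.00155), and Cdkn1b (p27) 1392 and 1589 against 851 and 953 (0.69, SE 0.15, adjusted p 0.00621). Between the DNp63 gates Cdkn1c was higher in basal cells again (430 and 378 against 31 and 12, adjusted p 0.000578), as was Cdkn2d (p19) (165 and 271 against 123 and 98, adjusted p 0.0321). Cdkn2a, which codes for p16 and p19Arf, was lower there (5 and 0 against 64 and 55, adjusted p 0.00170), as was Cdkn2b (p15) (30 and 5 against 89 and 94, adjusted p 0.00944). Between the DNp63 gates 24.8% of all genes were called higher and 24.3% lower. None of the 8 was called between DNp63 and CD1 cells in either gate by limma. Of all genes 4.38% were in luminal and 0.704% in basal cells. Cdkn1a (p21), a target of p53, ran from 2568 to 4002 over the 8 libraries and was called nowhere.

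Of 20 tested pocket protein, E2F and MuvB genes, 1 was called between DNp63 and CD1 luminal cells, where 4.38% of all genes were. Rb1, the retinoblastoma brake on E2F, was lower in DNp63 luminal cells (2346 and 2908 against 4443 and 7572, difference -1.21, SE 0.22, limma adjusted p 0.0206). It was also lower in basal than in luminal cells of CD1 mice (2317 and 2384, -1.33, adjusted p 0.00157), a comparison that shares the CD1 luminal libraries. Mybl2, the B-Myb that joins MuvB at mitotic promoters, had 18 and 8 in CD1 luminal and 50 and 110 in DNp63 luminal cells (1.98, adjusted p 0.0548) and was called higher in CD1 basal cells (55 and 92, 1.94, adjusted p 0.00977). Between the CD1 gates the repressor E2f7 (426 and 559 against 18 and 34, difference 3.89, adjusted p 9.02e-05) and Myc, a driver of growth (8305 and 9945 against 2039 and 2357, 2.02, adjusted p 2.07e-05), were higher in basal cells, and Myb was lower (344 and 280 against 1568 and 1993, -2.51, adjusted p 0.000720).

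Of 14 tested other cyclins and CDKs, 2 were called higher and 3 lower on the basal side in CD1 mice, no more often than among all genes (23.9% and 20.6%). The brake on Cdk1, Wee1, was lower (1479 and 1306 against 3851 and 4027, difference -1.53, limma adjusted p 0.000379), as were Ccng1 (-0.91, adjusted p 0.00125) and Cdk6, a partner of the D-type cyclins (1122 and 907 against 1415 and 1671, -0.63, adjusted p 0.0124). Ccng2 was higher (1154 and 1581 against 454 and 267, 1.90, adjusted p 0.000742), as was the phosphatase Cdc25a (0.63, adjusted p 0.0426). Cdk4, the other partner, was called between the DNp63 gates, lower in basal cells (1442 and 1741 against 3198 and 2501, -0.80, adjusted p 0.0219). None of the 14 was called between DNp63 and CD1 cells in either gate by limma. Of all genes 4.38% were in luminal and 0.704% in basal cells.

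Of 7 relatives of cycle genes that act in multiciliated cells, 4 passed the filter. The centriole genes Plk4, Cep152 and Stil, which also act in dividing cells, ran from 60 to 599 normalised reads over the libraries. Gmnc and Cdc20b had at most 3 and 5 normalised reads in any library, and Mcidas was at 0 in the 4 luminal libraries and at 9 to 28 in the basal ones. Ccno, a cyclin of those cells, was higher in basal than in luminal cells of CD1 mice (165 and 132 against 22 and 26, difference 2.26, SE 0.37, limma adjusted p 0.00139) and in DNp63 basal than in DNp63 luminal cells (152 and 199 against 20 and 8, 3.12, adjusted p 0.000202). It was not called between DNp63 and CD1 cells in either gate.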

How the data were processed

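RNA from sorted cells was extracted with a nanoprep kit, made into Ovation Solo libraries and sequenced on a NovaSeq, per the labels' protocols. STAR, HTSeq and GRCm38 (mm10) are named in the submitters' processing notes, with no version, and whether reads were counted by strand is not stated there. The deposited table holds, per gene and library, a score: reads scaled by the authors to a total of 20000000 per library and rounded up. From the spacing of low values the reads were recovered (99.8 to 99.9% of nonzero values whole within the rounding), giving 4136986 to 7206703 reads per library. No 2 libraries were identical (28 pairs), and log values of replicates correlated at 0.965 to 0.980.

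Because the values are not counts, log2(value / TMM factor + 8) was fitted with limma 3.58.1 (R 4.3.3) with a trend on the mean, over the 16900 of 49671 genes with at least 40 in 2 libraries. TMM factors came from recovered reads (0.979 to 1.03). The fit had 4 group means, 4 residual degrees of freedom and 4.69 from the prior. Benjamini-Hochberg adjustment ran over all 16900 genes, with a threshold of 0.05. An exact two-sided permutation test of 2 against 2 cannot go below p = 0.333. Per-kilobase levels used merged GENCODE M21 exons. Exact intervals on reads are 95% and cover counting error only; reads without molecular identifiers are not independent molecules. Tested on simulated data, the fit recovered 100% of 4-fold and 40 to 56% of 2-fold changes in the 4 group comparisons, and 84% and 18% in the interaction. The simulated libraries had the same spread beyond counting error for every gene and no step between replicates, and genes with few reads were left unchanged. These shares therefore do not carry over to the mitosis genes, where a gene not called can still differ 4-fold.

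The 42 genes and all lists were chosen with earlier results of these data known, so they are no independent evidence. Described in full were Mki67, Top2a, the D-type cyclins and every gene called in any comparison. From other lists up to 3 called genes per comparison were named by size of difference, with a few named after their values were seen. The lists covered CDK inhibitors, Rb and E2F genes, other cyclins, replication and mitosis genes, relatives in multiciliated cells, and immune, endothelial, pericyte, fibroblast, luminal and basal markers. Alternatives were other scalings, pseudocounts and filters, limma voom on recovered reads, a replicate block, the compared libraries alone, and leaving out each library. Leaving out the first or the second libraries of both DNp63 groups was chosen after seeing the data.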

Additional observations from a re-analysis of the deposited data

How the results depend on the processing

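Over the 42 genes and 5 comparisons, 3782 of 3900 gene values under alternatives kept their side of the threshold, of which 206 uncalled ones changed sign. Another 62 lost a call, 56 gained one and 0 turned a called direction. The number of the 42 genes called between the CD1 gates was 9, 5 with voom and 5 to 9 when 1 library was left out. Between DNp63 and CD1 luminal cells it was 2, and it became 1 with a pseudocount of 32 or the compared libraries alone, 0 without a filter, with voom or without the second libraries of both DNp63 groups, 5 without the first, and 0 to 5 with 1 library left out. Between DNp63 and CD1 basal cells it was 0, and it became 1 with voom or the compared libraries alone, 0 to 1 with 1 library left out, and 3 without the first libraries of both DNp63 groups. Between the DNp63 gates it was 5, and 2 without either pair of DNp63 libraries. The interaction had 0, and 0 to 1 with 1 library left out. With median-of-ratios scaling 40 and with the deposited scaling 42 of the 42 luminal differences between DNp63 and CD1 cells were above 0, beside 41, and 38 of the basal ones under each. The cause of each change was not tested.

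Over all genes, the 741 calls between DNp63 and CD1 luminal cells became 486 without a filter, 315 with the compared libraries alone, 35 and 118 without the second and first libraries of both DNp63 groups, and 147 to 984 without 1 library (147 without the second and 254 without the first DNp63 luminal library). The 119 calls in basal cells became 56 without a filter, 55 with voom, 19 and 21 without the second and first DNp63 libraries, and 3 to 188 without 1 library (3 without the first CD1 basal one). The 8304 calls between the DNp63 gates became 3742 and 3736 without the second and first DNp63 libraries. The 64 interaction calls became 114 with a pseudocount of 32, 11 without a filter, 16 with voom, 0 without either pair of DNp63 libraries, and 4 to 163 without 1 library.

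Libraries share replicate numbers across groups, which nothing in the labels ties to an animal or day. Differences between the first and second library correlated at 0.341 between the CD1 gates, 0.267 between the DNp63 gates, and -0.0143 to 0.0406 across mice. With the number as a replicate block, 11 of the 42 genes were called between DNp63 and CD1 luminal cells (915 of all 16900). Between DNp63 and CD1 basal cells 8 of the 42 were called (202 of all 16900), and over all genes 121 in the interaction. The block fits 1 step from first to second library for all 4 groups, although these differences correlated little across mice. Its calls rest on that assumption. Between the CD1 gates the block also brought calls of Mki67 (1.20, adjusted p 0.0274) and Kif11 (-0.96, adjusted p 0.0457). At this depth many mitosis genes had few reads in the CD1 groups, which widens the counting intervals of their ratios.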
